A study of Mus musculus with 6 samples.

Results

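The DNA replication machinery copies the genome once per cell cycle, and 51 genes of it are described here. They were chosen by symbol for their place in this machinery, with earlier results of these data known. The deposited count table holds 25703 genes. The 51 genes cover origin licensing, the helicase, the polymerases, the sliding clamp and its loader, nucleotide supply, fork protection and chromatin assembly behind the fork. All 51 were found in the table, and all 51 passed the filter on low counts. RNA came from the incisor's proximal end in C57BL/6 mice at 6 weeks of age, with 3 libraries per genotype: Arid1a fl/fl, the control, and Gli1-CreER;Arid1a fl/fl, called Arid1a cKO. Both groups carried the floxed Arid1a allele, and the labels give tamoxifen (1.5 mg per 10 g of weight, given on 3 days when the mice were 1 month old) for both, so the groups differ by the CreER allele and the recombination it drives. The CreER allele acts in cells of the Gli1 lineage, mesenchymal stem cells of the incisor among them, and other cells keep Arid1a.

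Replication origins are licensed in G1 phase, when the origin recognition complex, Cdc6 and Cdt1 load the ring-shaped MCM helicase onto DNA. In S phase Cdc45 and the GINS complex switch the ring on, primase and the polymerases copy both strands, and the clamp PCNA, placed by the RFC loader, holds the polymerases on DNA. Many of these genes are transcribed under E2F factors as cells enter S phase, and in the growing mouse incisor they are expressed in the transit-amplifying cells next to the stem cells.

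The E2F element and the CCAAT box were more frequent in the members than in all genes with a promoter, and the CHR element was not. RefSeq promoters (build GRCm38, 250 bases before to 50 after a transcription start) were found for 41 of the 51 genes. An E2F element of 8 letters (TTTCGCGC, TTTGGCGC, TTTCCCGC or TTTGCCGC, either strand) was present in 18 of these 41 genes (43.9%), against 704 of all 27025 genes with a promoter (2.6%). Per promoter, the share was 38.3% of the 47 promoters of the members and 2.26% of all 32851 promoters. The CCAAT box (CCAAT, either strand) was present in 26 of 41 genes (63.4%), against 41.1% of all genes. The CHR element of G2 and M phase genes (TTTGAA or TTCGAA, either strand) was present in 8 (19.5%), near the 21.7% of all genes. In the other replication genes described below (34 with a promoter) the shares were 20.6% (E2F), 38.2% (CCAAT) and 20.6% (CHR). In the G2 and M phase markers described below (18 with a promoter) they were 5.56%, 88.9% and 77.8%. Base composition differs between promoters and was not matched, so these shares are a description of letters and not of factor binding.

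A few stretches just before the start are printed below 5′ to 3′ on the gene's strand, with E2F elements and CCAAT boxes in capitals. Dtl (chr1:191575545-191575624, minus strand), Mcm5 (chr8:75109349-75109508, plus strand) and Mcm6 (chr1:128359706-128359825, minus strand) show genes with the element. Mcm10 (chr2:5012792-5012901, minus strand) and Rrm1 (chr7:102441585-102441694, plus strand) show genes with CCAAT boxes and none of these E2F letters in the window.
Dtl: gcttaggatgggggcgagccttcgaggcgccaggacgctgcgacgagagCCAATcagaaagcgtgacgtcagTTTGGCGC
Mcm5: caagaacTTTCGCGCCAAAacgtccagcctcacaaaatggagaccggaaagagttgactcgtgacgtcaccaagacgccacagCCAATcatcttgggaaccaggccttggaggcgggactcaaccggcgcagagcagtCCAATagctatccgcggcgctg
Mcm6: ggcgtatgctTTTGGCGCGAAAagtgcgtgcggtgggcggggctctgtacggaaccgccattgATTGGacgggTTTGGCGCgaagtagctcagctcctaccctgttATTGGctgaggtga
Mcm10: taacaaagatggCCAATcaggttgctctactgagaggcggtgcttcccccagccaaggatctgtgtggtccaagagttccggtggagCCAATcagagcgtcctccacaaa
Rrm1: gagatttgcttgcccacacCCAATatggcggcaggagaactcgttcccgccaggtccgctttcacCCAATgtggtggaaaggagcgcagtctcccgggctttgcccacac
In Mcm5 and Mcm6 an E2F element on each strand overlap by 4 letters, giving 1 longer run of capitals. The Dtl element ends at the last base before the start.

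Library totals lay between 27300932 and 37908478 counts. The lowest member level in any library was 3.06 CPM (Dscc1). No label names separate animals behind the libraries, and the p-values therefore describe only the spread between these samples. Arid1a, a subunit of the SWI/SNF chromatin remodeller, was lower in all 3 Arid1a cKO libraries (136, 139 and 145 CPM, counts scaled to library totals adjusted by TMM) than in the controls (222, 249 and 223 CPM). It fell 1.65-fold (edgeR adjusted p = 0.00802, log2 fold change -0.72, SE 0.0677). Xist was at 3894 CPM in control replicate 3 and 2807 CPM in Arid1a cKO replicate 1, and at 4.39 CPM or less in the other libraries, so each group held libraries of both sexes. Summed dental epithelium markers (15 of 15 genes in the table) ranged from 1630 to 5158 CPM in control and from 1811 to 3620 CPM in Arid1a cKO. Amelx alone made up 1914 CPM of the sum in control replicate 3. In 2 of the 15 the groups did not overlap, both higher, near the 13.8% of all genes tested without overlap upward. Of the 15, 1 rose, Epcam (log2 fold change 0.47, edgeR adjusted p = 0.0199), against 1.5% of all genes. Krt5 (0.79), Krt14 (0.63) and Cdh1 (0.58) had positive estimates and Amelx a negative one (-1.31), without passing and with overlap. Summed dental mesenchyme markers (8 of 8 in the table) ranged from 17200 to 40600 CPM in control and from 27680 to 30350 CPM in Arid1a cKO. In 1 of the 8 the groups did not overlap upward and in 1, Msx1, downward (13.8% and 15.3% of all genes tested), and 0 passed the test. Log2 fold changes were -0.14 for Msx1, -0.31 for Vim, -0.25 for Prrx1, -0.12 for Col1a1 and 0.27 for Dspp. Values of the other markers of the list, Col1a2, Pax9 and Twist1, are not shown, and the 1 without overlap upward is among them. Col1a1 and Dspp were at 10630 CPM and 1260 CPM or more in every library.

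The replication genes were higher in Arid1a cKO as a body, by a modest margin. All 51 had a positive log2 fold change, from 0.08 (Slbp) to 0.67 (Cdc6), with a median of 0.391 (the median over all 19613 genes tested was 0.0043, and 50.8% of them were positive). By edgeR's quasi-likelihood test, Benjamini-Hochberg adjusted over all genes, 16 of the 51 rose and 0 fell at an adjusted p under 0.05, against 1.5% of all genes tested higher and 2.46% lower. At an unadjusted p under 0.05, 45 were higher and 0 lower (10% of all genes tested were higher at that level). The control and Arid1a cKO values did not overlap in 45 members, all higher, against 13.8% of all genes. The other 6 were Gins1, Gins2, Gins4, Pole2, Ung and Slbp. The counts by role and by promoter element below stand against the same shares, 1.5% called higher and 13.8% without overlap upward. In bulk tissue, more replicating cells and more of each RNA per cell cannot be told apart. DESeq2 called 35 members higher and 0 lower (background 4.47% higher and 6.01% lower), and edgeR with a filter of at least 1 CPM called 25 higher (background 2.2%).

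**Figure D1:**
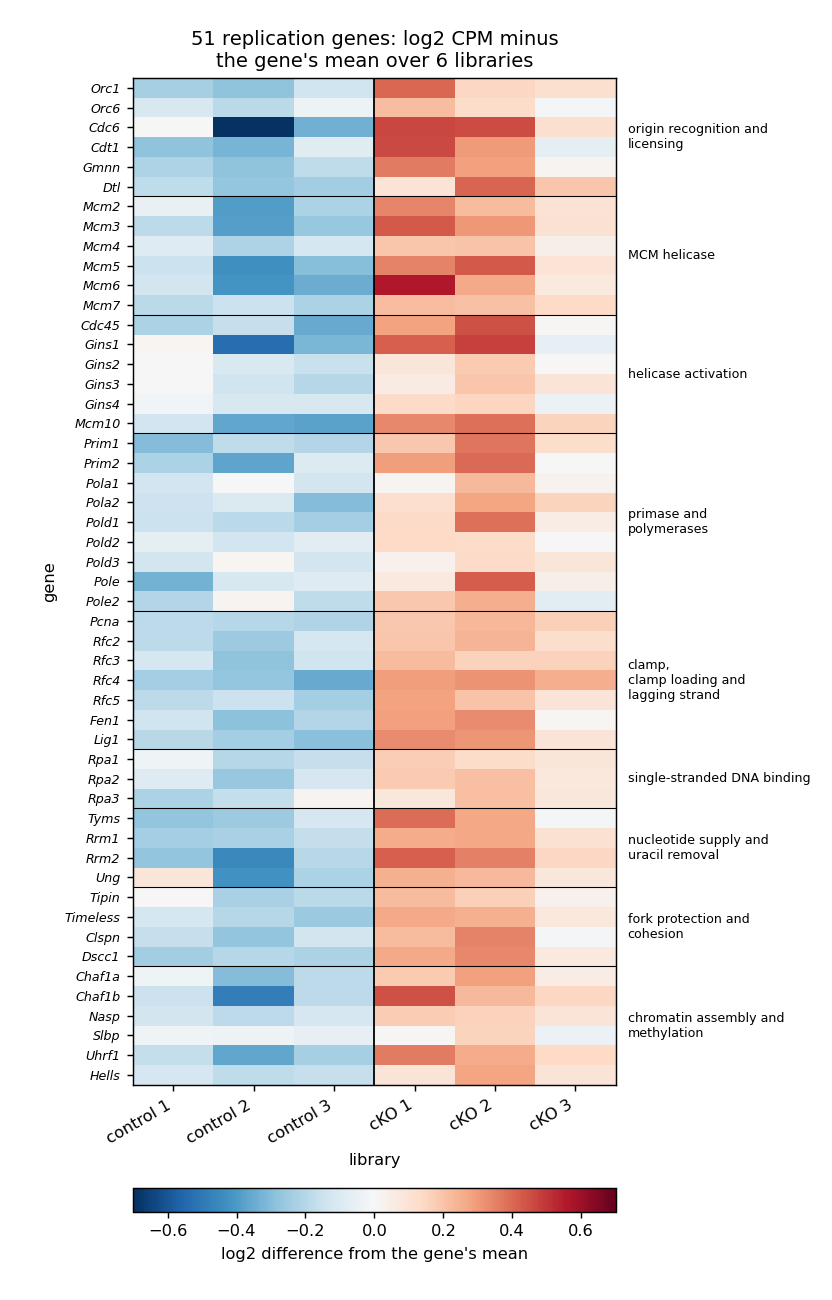
Level of each of the 51 replication genes (rows, grouped by role) in each library (columns), as log2 CPM minus the gene's mean over the 6 libraries (color scale, log2 units). Control columns are mostly below 0 and Arid1a cKO columns mostly above, with Arid1a cKO replicate 3 the palest of its group.

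The size of the rise differed between the Arid1a cKO libraries. Summed over the 51 genes, the level was 1374, 1289 and 1328 CPM in the controls and 1779, 1798 and 1593 CPM in the Arid1a cKO libraries, in replicate order as throughout. Arid1a cKO replicate 3 was the lowest of its group in 46 members and the highest in 0. Arid1a cKO replicate 2 was the highest of its group in 29 members and the lowest in 0. Control replicate 2 was the lowest control in 29 members, and control replicate 1 the highest in 29. Between the libraries with high Xist, 1 per group, all 51 members were higher in Arid1a cKO, against 49.6% of all genes tested. The median log2 difference of the members was 0.402 (no test with 1 library a side). Between those with low Xist, 2 per group, all 51 mean levels were higher (median 0.377), against 50.2% of all genes tested. In 45 members these libraries did not overlap, against 24% of all genes without overlap upward. These are the 45 that did not overlap over all 6 libraries. For them the direction in both comparisons by Xist was therefore fixed in advance, so these comparisons are no separate check. With these 4 libraries alone edgeR called 0 members (background 0.273% higher), with a median log2 fold change of 0.4 and 36 members higher at an unadjusted p under 0.05 (7.78% of all genes). With all 6 libraries and the Xist level as a covariate edgeR called 19 members, all 16 among them (background 2.25%), with a median of 0.39.

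None of the 16 calls held without each library in turn. The number called was 1, 4 and 0 without control replicate 1, 2 or 3 (background 0.281%, 0.647% and 0.273% higher). It was 9, 4 and 7 without Arid1a cKO replicate 1, 2 or 3 (background 0.971%, 0.835% and 0.333%). Without control replicate 3, 41 members were higher at an unadjusted p under 0.05 (8.86% of all genes). All 51 log2 fold changes stayed positive in each of these fits, with medians of 0.366 to 0.464. Schwann cell and nerve markers (6 of 6 in the table) moved with the groups, at 108.3 to 210.6 CPM in control and 227.3 CPM or more in Arid1a cKO. In 4 of the 6 the groups did not overlap, all higher (13.8% of all genes tested), but 0 passed the test. Summed pericyte and smooth muscle markers overlapped, but 3 of 6 were higher and 3 lower without overlap, with 1 called each way. Of 6 bone and osteoclast markers 1 was called higher, and their sum overlapped. For calls, the shares of all genes were 1.5% higher and 2.46% lower. The part of these cell types in the result was not tested. When the dental epithelium score was added as a covariate 13 members were called (background 1.28% higher), and with the ribosomal RNA share 12 (background 2.59%). Summed ribosomal RNA genes were at 4649 CPM in Arid1a cKO replicate 2 and at 1352 to 2248 CPM in the other libraries.

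**Figure D2:**
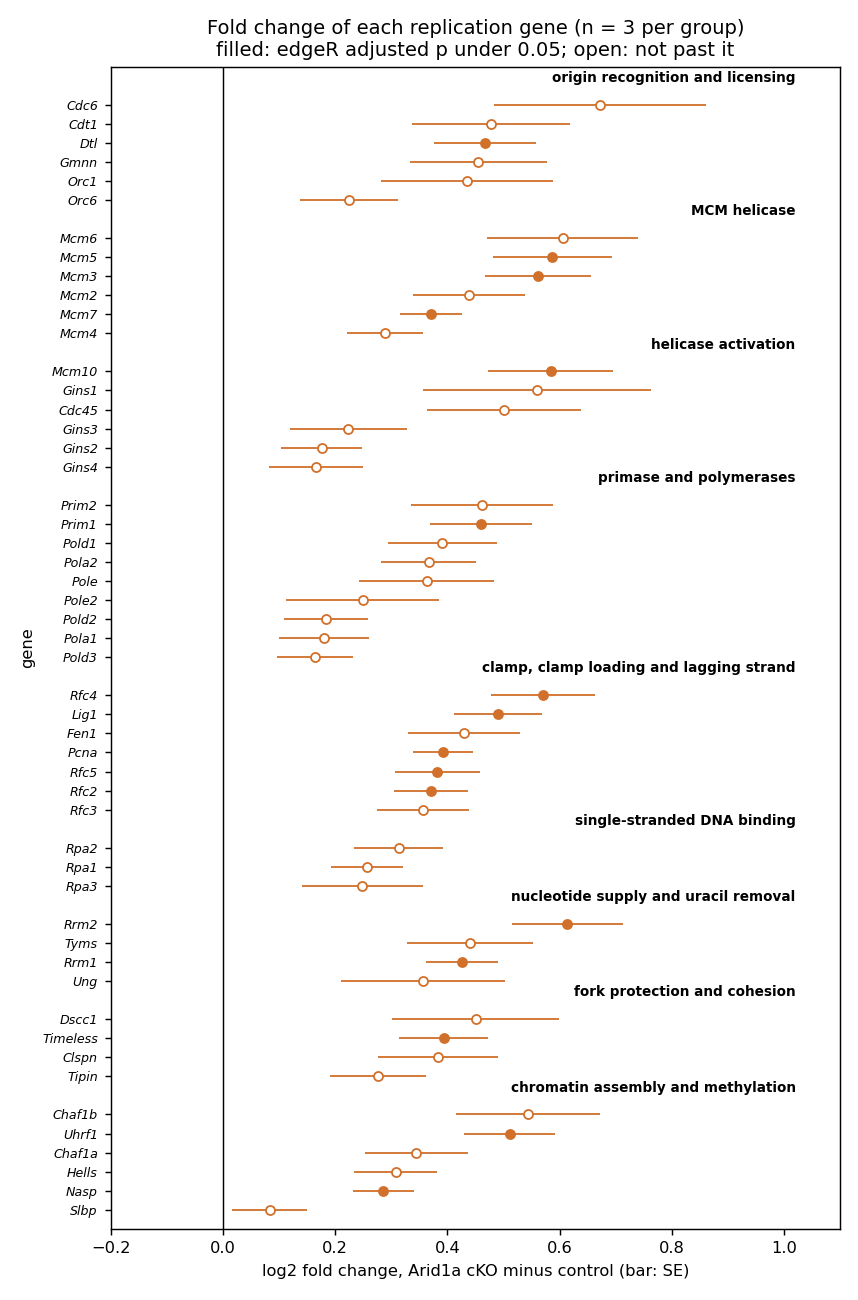
Log2 fold change of each replication gene, Arid1a cKO minus control (x axis), with its SE as a bar, grouped by role and n = 3 per group. Filled points are the 16 genes with an edgeR adjusted p under 0.05, and every point lies to the right of 0.

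Genes of origin licensing and its control were all higher, with 1 of 6 past the threshold, a gene that acts against Cdt1. Dtl, the substrate receptor of the ubiquitin ligase that destroys Cdt1 in S phase (chromosome 1, 191537356 to 191575544, mm10), was at 25.4, 23.8 and 24.3 CPM in the 3 controls and at 30.7, 38.1 and 32.9 CPM in the 3 Arid1a cKO libraries. The groups did not overlap, and Dtl rose 1.38-fold, with means of 24.5 ± 0.831 CPM and 33.9 ± 3.80 CPM (SD, n = 3; edgeR adjusted p = 0.0348, log2 fold change 0.47, SE 0.0906). It missed the threshold when any control or Arid1a cKO replicate 2 or 3 was left out (0.0998 at most), and with limma-voom (0.0507).

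Cdc6, which loads the helicase together with Cdt1, had the largest point estimate of the 51 genes, at 7.81, 4.85 and 6.21 CPM in control and 10.9, 10.8 and 8.46 CPM in Arid1a cKO. Its controls were also widely spread, and it missed the threshold (log2 fold change 0.67, SE 0.189, edgeR adjusted p = 0.0914). Cdt1 was at 13.3, 12.8 and 15.2 CPM in control and 22.1, 19.8 and 15.4 CPM in Arid1a cKO, so that Arid1a cKO replicate 3 sat just above the highest control (log2 fold change 0.48, edgeR adjusted p = 0.101). Its inhibitor Gmnn, geminin, was at 7.10 to 7.63 CPM in control and 8.74 to 11.1 CPM in Arid1a cKO (0.46, 0.0823). The Cdt1 to Gmnn ratio, from CPM per kilobase of exon, was 0.867 ± 0.0514 in control and 0.878 ± 0.0540 in Arid1a cKO (SD, n = 3; exact two-sided permutation p = 0.9). With 3 against 3 this test cannot go below 0.1, so it does not show that the ratio stayed the same. The origin recognition subunits Orc1 (log2 fold change 0.43, edgeR adjusted p = 0.153) and Orc6 (0.23, 0.185) did not pass. Cdt1 overlaps Gm20388 on its own strand, and Orc6 overlaps Vps35 on the other.

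The MCM helicase, a ring of 6 related subunits that unwinds DNA, had 3 of 6 genes past the threshold (1.5% of all genes tested, higher). In all 6 the groups did not overlap (13.8% of all genes, upward). Mcm3 (chromosome 1, 20802968 to 20820312) was at 42.3, 36.8 and 40 CPM in the controls and 64.6, 59.3 and 51.6 CPM in the Arid1a cKO libraries. Mcm5 (chromosome 8, 75109569 to 75128439) was at 42.6, 35.2 and 38.5 CPM in control and 60.3, 63.8 and 50.5 CPM in Arid1a cKO. Mcm7 (chromosome 5, 138164583 to 138172422) was at 47.6, 48.8 and 46.5 CPM in control and 62.9, 62.3 and 59.6 CPM in Arid1a cKO. In each of them the lowest Arid1a cKO value lay above the highest control, with the smallest spread in Mcm7. Mcm3 rose 1.48-fold (log2 fold change 0.56, SE 0.0946, edgeR adjusted p = 0.0235), Mcm5 1.50-fold (0.59, SE 0.106, 0.0290) and Mcm7 1.29-fold (0.37, SE 0.0555, 0.0175).

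Mcm6 was at 51.8, 42.4 and 44.5 CPM in control and 83.4, 68.2 and 59.4 CPM in Arid1a cKO. Its estimate was the largest of the 6 subunits, but its Arid1a cKO values were the most spread (70.3 ± 12.2 CPM, SD, n = 3) and it did not pass (log2 fold change 0.61, SE 0.134, edgeR adjusted p = 0.0558). Mcm2 (0.44, SE 0.0996, adjusted p = 0.0543) and Mcm4 (0.29, SE 0.0673, 0.0570) also stayed just outside. These 3 were called by DESeq2 (adjusted p = 0.000753 for Mcm6, 0.00457 for Mcm2 and 0.0142 for Mcm4). By level per kilobase of exon in control, Mcm4 stood first at 15.8 ± 0.687 CPM per kilobase (SD, n = 3) and Mcm2 last at 5.90 ± 0.686. Between them lay Mcm7 (10.8 ± 0.265), Mcm3 (10.6 ± 0.730), Mcm6 (9.91 ± 1.05) and Mcm5 (9.71 ± 0.934), which did not differ beyond their spread. The exon length counts every annotated exon of the gene, so the order of subunits depends on which transcripts are used.

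With 1 library left out the log2 fold changes were 0.48 to 0.66 for Mcm3, 0.51 to 0.69 for Mcm5 and 0.35 to 0.41 for Mcm7, while their calls came and went. Mcm3 missed the threshold when any control or Arid1a cKO replicate 2 was left out (0.0786 at most), and Mcm5 also without Arid1a cKO replicate 1 (0.0885 at most). Mcm7 missed it without Arid1a cKO replicate 3 and without control replicate 1 or 3 (up to 0.0702). Mcm5 also missed it with the ribosomal RNA share as a covariate (0.0516). Mcm7 overlaps Cops6 and Ap4m1 on the opposite strand, so part of its count could be theirs if strand was not used, which was not tested.

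**Figure D3:**
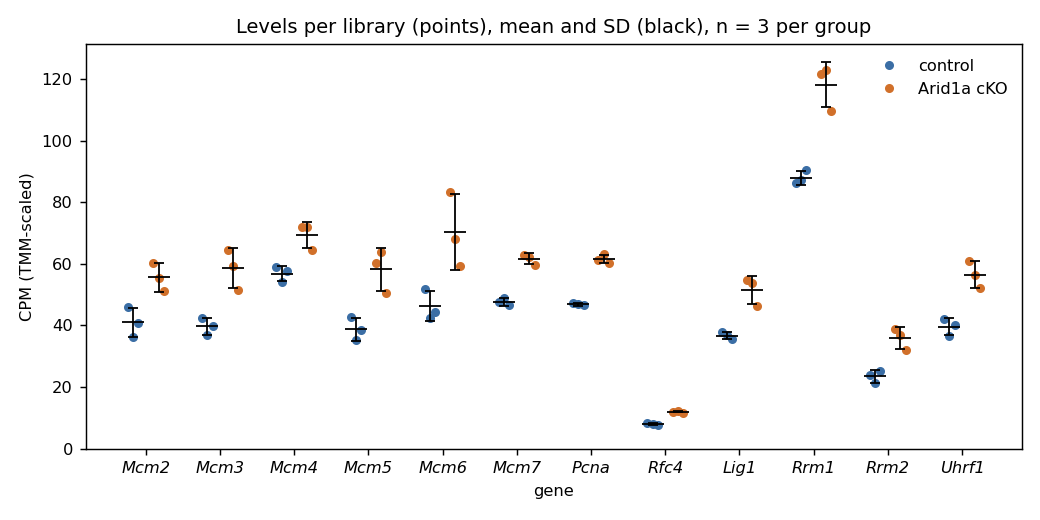
CPM (y axis, from 0) of the 6 MCM genes, Pcna, Rfc4, Lig1, Rrm1, Rrm2 and Uhrf1 in each library (points, control blue, Arid1a cKO orange), with the mean and SD in black and n = 3 per group. In each of these 12 genes the lowest Arid1a cKO point lies above the highest control point.

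Helicase activation held 1 call among 6 genes. Mcm10, which helps switch on the loaded helicase (chromosome 2, 4989714 to 5012791), was at 10.6, 9.06 and 8.98 CPM in control and 14.7, 15.2 and 13 CPM in Arid1a cKO. It rose 1.50-fold without overlap (log2 fold change 0.58, SE 0.111, edgeR adjusted p = 0.0340), and it missed the threshold whichever library was left out (0.0593 to 0.103) and with the ribosomal RNA share as a covariate (0.0536). Cdc45, a helicase cofactor, was at 7.40, 7.72 and 6.76 CPM in control and 10.5, 11.8 and 8.68 CPM in Arid1a cKO (0.50, SE 0.138, adjusted p = 0.0862). It overlaps Ufd1 on the opposite strand. The 4 GINS subunits, which form 1 complex, had estimates of 0.56 (Gins1, SE 0.203), 0.18 (Gins2, SE 0.0720), 0.22 (Gins3, SE 0.104) and 0.17 (Gins4, SE 0.0838), with edgeR adjusted p from 0.162 to 0.296. In Gins1, Gins2 and Gins4 Arid1a cKO replicate 3 (5.08, 51.5 and 17.6 CPM) lay below control replicate 1 (5.35, 51.6 and 17.9 CPM). Gins2 overlaps Gm20388 and Gse1 on the opposite strand.

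Primase and the replicative polymerases had 1 of 9 genes past the threshold. Prim1, the catalytic subunit of the primase that lays down RNA primers (chromosome 10, 128015168 to 128030037), was at 15.5, 16.9 and 16.5 CPM in control and 21.7, 24.8 and 20.8 CPM in Arid1a cKO. It rose 1.38-fold (log2 fold change 0.46, SE 0.0910, edgeR adjusted p = 0.0372). Its partner Prim2 had the same estimate with a wider spread (0.46, SE 0.127, 0.0863). Prim1 missed the threshold whichever library was left out (0.0590 to 0.119), with either the dental epithelium score (0.0504) or the ribosomal RNA share (0.0597) as a covariate, and with limma on the authors' normalized table at a pseudocount of 5 (0.0552).

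Polymerase alpha, which extends the primer, had a subunit near the threshold, Pola2 (log2 fold change 0.37, SE 0.0847, edgeR adjusted p = 0.0562), and a catalytic subunit, Pola1, with a smaller estimate (0.18, SE 0.0801, 0.239). Of polymerase delta, the lagging strand enzyme, the catalytic Pold1 was at 20.8 to 22.1 CPM in control and 25.4 to 32.1 CPM in Arid1a cKO (0.39, SE 0.0970, 0.0664). Its accessory subunits Pold2 (0.18, 0.205) and Pold3 (0.16, 0.211) had smaller estimates. For polymerase epsilon, the leading strand enzyme, Pole was at 0.36 (SE 0.120, 0.131) and Pole2 at 0.25 (SE 0.137, 0.330). The difference between subunits of 1 enzyme was not tested. Pole2 was the member of this group whose libraries overlapped, with control replicate 2 at 7.27 CPM and Arid1a cKO replicate 3 at 6.81 CPM. It overlaps Gm49384 on its own strand.

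The sliding clamp, its loader and the enzymes that finish the lagging strand held 5 of the 16 calls. Pcna, the clamp that encircles DNA (chromosome 2, 132249162 to 132253314), was at 47.3, 46.9 and 46.5 CPM in the controls and 61.2, 63.1 and 60.3 CPM in the Arid1a cKO libraries. Libraries of a group lay within a few percent of each other, far closer than the groups. Pcna rose 1.31-fold, with means of 46.9 ± 0.409 CPM and 61.5 ± 1.43 CPM (SD, n = 3; edgeR adjusted p = 0.0142, log2 fold change 0.39, SE 0.0528), the smallest adjusted p of the 51 genes. Its call was lost without control replicate 3 alone (0.0552). The annotation holds the pseudogenes Pcna-ps1 and Pcna-ps2, and reads shared with them are uncertain.

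Of the loader, Rfc4 (chromosome 16, 23113943 to 23127737) was at 8.37, 8.20 and 7.73 CPM in control and 12.1, 12.3 and 11.8 CPM in Arid1a cKO, a 1.49-fold rise (log2 fold change 0.57, SE 0.0930, edgeR adjusted p = 0.0212). Rfc2 (chromosome 5, 134581366 to 134601805) was at 30.1, 28.6 and 31.4 CPM in control and 39.1, 40.2 and 37.2 CPM in Arid1a cKO (0.37, SE 0.0658, 0.0274). Rfc5 (chromosome 5, 117378103 to 117389047) was at 21.2, 21.7 and 20.5 CPM in control and 29.3, 27.7 and 25.6 CPM in Arid1a cKO (0.38, SE 0.0755, 0.0372). Each of these small loader subunits was thus higher in every Arid1a cKO library than in any control, and Rfc3 was too without passing (0.36, SE 0.0814, 0.0548). Rfc4 missed the threshold when any library but Arid1a cKO replicate 1 was left out (0.0775 at most). Rfc2 (0.0576 to 0.0860) and Rfc5 (0.0674 to 0.115) were lost without each library in turn, and Rfc5 also with the dental epithelium score (0.0563) or the ribosomal RNA share (0.0502). Rfc2, Rfc4 and Rfc5 overlap Lat2, Eif4a2 and Wsb2 on the opposite strand.

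Lig1, the ligase that seals Okazaki fragments (chromosome 7, 13277283 to 13311433), was at 38.0, 36.8 and 35.5 CPM in control and 54.6, 53.8 and 46.3 CPM in Arid1a cKO. It rose 1.40-fold (log2 fold change 0.49, SE 0.0782, edgeR adjusted p = 0.0203), and missed the threshold when any control or Arid1a cKO replicate 2 was left out (0.0774 at most). Fen1, the nuclease that trims the flaps between those fragments, was at 17.2 to 19.1 CPM in control and 21.3 to 26.5 CPM in Arid1a cKO and did not pass (0.43, SE 0.0999, 0.0569). Lig1 overlaps Zswim9, and Fen1 overlaps Tmem258, on the opposite strand.

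The single-stranded DNA binding complex RPA, which coats the unwound template, had 0 of 3 genes past the edgeR threshold, although 2 had an unadjusted p under 0.05 and DESeq2 called those 2. Rpa1 was at 74.6, 66.2 and 68.1 CPM in control and 85.7, 83.2 and 80.7 CPM in Arid1a cKO (log2 fold change 0.26, SE 0.0639, edgeR adjusted p = 0.0666; DESeq2 adjusted p = 0.0252). Rpa2 was at 20.5, 18.2 and 20.1 CPM in control and 24.8, 25.2 and 23.0 CPM in Arid1a cKO (0.31, SE 0.0797, 0.0713; DESeq2 0.0382). Rpa3 ranged from 8.41 to 9.93 CPM in control and from 10.4 to 11.4 CPM in Arid1a cKO (0.25, SE 0.108, 0.231). None of these genes overlapped between groups.

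Nucleotide supply held 2 calls among 4 genes, both subunits of ribonucleotide reductase, the enzyme that makes deoxynucleotides. Rrm1, the large subunit (chromosome 7, 102441695 to 102469771), was at 86.2, 87.0 and 90.6 CPM in control and 121.7, 122.9 and 109.6 CPM in Arid1a cKO. It rose 1.34-fold (log2 fold change 0.43, SE 0.0637, edgeR adjusted p = 0.0175). Rrm2, the small subunit of dividing cells (chromosome 12, 24708241 to 24714146), was at 23.9, 21.2 and 25.3 CPM in control and 38.7, 36.9 and 32.0 CPM in Arid1a cKO, a 1.53-fold rise (0.61, SE 0.0986, 0.0208). Rrm1 was lost without control replicate 1 or 3 (up to 0.0679), and Rrm2 without any control or Arid1a cKO replicate 2 (0.0724 at most). Tyms, which makes thymidylate, was at 17.9 to 19.9 CPM in control and 21.4 to 28.3 CPM in Arid1a cKO (0.44, SE 0.112, 0.0711), and the annotation holds a copy, Tyms-ps. Ung, which removes uracil from DNA, overlapped between the groups (6.67 to 9.50 against 9.43 to 10.6 CPM; 0.36, SE 0.146, 0.207).

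Fork protection factors had 1 of 4 genes past the threshold. Timeless, which with Tipin couples the helicase to the polymerases (chromosome 10, 128232065 to 128252941), was at 23.7, 22.5 and 21.6 CPM in control and 31.0, 30.7 and 27.2 CPM in Arid1a cKO. It rose 1.31-fold (log2 fold change 0.39, SE 0.0792, edgeR adjusted p = 0.0391), with the largest adjusted p of the 16 calls. It was lost without each library in turn (0.0604 to 0.115) and with the dental epithelium score (0.0502) or the ribosomal RNA share (0.0592). Tipin (0.28, SE 0.0861, 0.114), the checkpoint adaptor Clspn (0.38, SE 0.107, 0.0885) and Dscc1, of an alternative clamp loader that acts in cohesion (0.45, SE 0.149, 0.129), did not pass, and none overlapped between the groups.

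Chromatin assembly and maintenance genes had 2 of 6 past the threshold. Uhrf1, which reads hemimethylated DNA and recruits the maintenance methyltransferase (chromosome 17, 56303321 to 56323486), was at 42.0, 36.7 and 40.1 CPM in control and 60.8, 56.5 and 52.0 CPM in Arid1a cKO. It rose 1.43-fold (log2 fold change 0.51, SE 0.0807, edgeR adjusted p = 0.0199). Nasp, a histone chaperone (chromosome 4, 116601052 to 116627941), was at 64.7, 62.3 and 65.0 CPM in control and 79.9, 79.0 and 75.2 CPM in Arid1a cKO (0.29, SE 0.0546, 0.0341). Its 1.22-fold rise was the smallest of the 16 that passed, and its libraries were close together. Uhrf1 was lost without control replicate 1 or 3 (up to 0.0701). Nasp was lost without each library in turn, with an adjusted p of up to 0.0945, and with the dental epithelium score (0.0535), and the annotation holds a copy, Nasp-ps1.

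The CAF-1 subunits, which place new histones behind the fork, were higher without passing (Chaf1b 0.54, SE 0.128, edgeR adjusted p = 0.0587; Chaf1a 0.34, SE 0.0925, 0.0817). So was Hells, a remodeller linked to DNA methylation (0.31, SE 0.0739, 0.0612). Chaf1a overlaps Ubxn6 on the opposite strand. Slbp, which binds the stem-loop of histone mRNAs, had the smallest estimate of the 51 genes, at 52.5, 52.3 and 51.6 CPM in control and 53.9, 59.8 and 52.0 CPM in Arid1a cKO (0.08, SE 0.0668, 0.503). Its groups overlapped, since control replicate 1 lay above Arid1a cKO replicate 3.

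A further 40 replication genes outside the 51 had a lower median. Of these 3 rose (7.5%, against 1.5% of all genes tested), 1 fell (2.5%, near the 2.46% of all genes) and 36 did not pass, and 33 of 40 (82.5%) had a positive log2 fold change, with a median of 0.174. Tk1, the S phase thymidine kinase, was at 15.9, 14.1 and 15.2 CPM in control and 24.8, 22.7 and 21.5 CPM in Arid1a cKO (1.52-fold, edgeR adjusted p = 0.0163). Ticrr, which brings Cdc45 to origins (1.47-fold, 0.0341), and the maintenance methyltransferase Dnmt1 (1.26-fold, 0.0346) rose as well. The origin recognition subunits outside the 51 genes had estimates near 0 or below, namely Orc2 (log2 fold change 0.10, adjusted p = 0.357), Orc3 (-0.06, 0.579), Orc4 (-0.26, 0.207) and Orc5 (0.05, 0.797). These 4 were named after their values were seen. Leaving out single libraries brought the number that rose to between 0 and 2. Tk1 was lost without control replicate 1 (0.0503) or 3 (0.0613), Ticrr without each library in turn (up to 0.109), and Dnmt1 without any control or Arid1a cKO replicate 2 or 3 (up to 0.0962).

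Rrm2b, the alternative small subunit of ribonucleotide reductase that non-dividing cells use, was the gene that fell, so that the list held about the share of falls seen in all genes. It was at 30.7, 29.4 and 29.7 CPM in control and 20.9, 25.1 and 21.8 CPM in Arid1a cKO, with no overlap (1.32-fold lower, log2 fold change -0.40, SE 0.0837, edgeR adjusted p = 0.0417). The Rrm2 to Rrm2b ratio, per kilobase of exon, was 2.57, 2.37 and 2.80 in control and 6.10, 4.85 and 4.83 in Arid1a cKO. Its mean was 2.58 ± 0.216 in control and 5.26 ± 0.725 in Arid1a cKO (SD, n = 3), and the exact two-sided permutation p was 0.1, the smallest that 3 against 3 can give. This ratio was chosen after the values were seen. Rrm2 was higher and Rrm2b lower in every Arid1a cKO library than in any control. The ratio therefore had to separate the groups, its p was fixed in advance, and it adds nothing to the values of the 2 genes. Rrm2b missed the threshold when any library but Arid1a cKO replicate 2 was left out (0.134 at most), with upper quartile normalization (0.0504), with the dental epithelium score (0.0535) and with limma on the authors' normalized table (0.0559 to 0.0627).

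**Figure D4:**
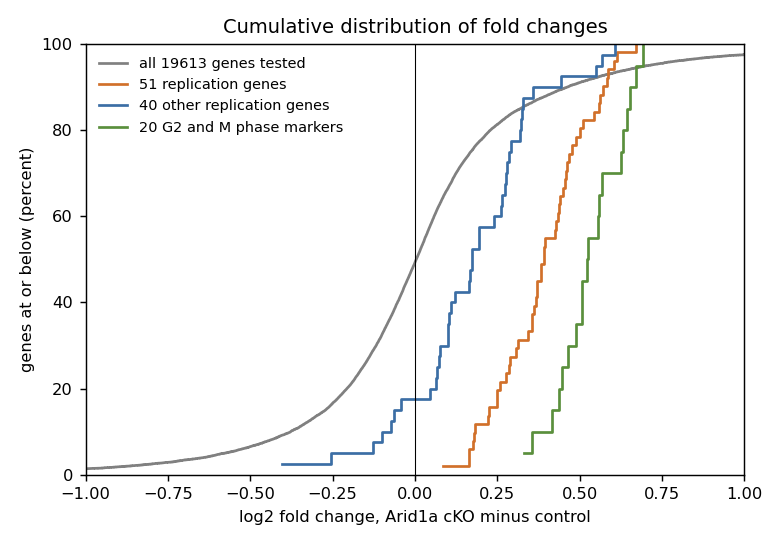
Share of genes (y axis, percent) at or below each log2 fold change, Arid1a cKO minus control (x axis), for all 19613 genes tested, the 51 replication genes, 40 other replication genes and 20 G2 and M phase markers. The curve of the 51 genes begins above 0 and crosses its median at 0.391.

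For scale, 20 G2 and M phase markers had a median of 0.524 on the log2 scale, 13 higher and 0 lower (against 1.5% and 2.46% of all genes tested). Their estimates ran from 0.33 (Mki67) to 0.69 (Cdk1). Cdk1, the mitotic cyclin-dependent kinase, was at 24.4, 26.5 and 25.1 CPM in control and 42.1, 41.8 and 38.9 CPM in Arid1a cKO. It rose 1.62-fold (edgeR adjusted p = 0.00802) and passed whichever library was left out (0.0101 to 0.0390). Mki67, a marker of cycling cells, was at 179.1, 231.4 and 197.7 CPM in control and 258.5, 264.6 and 242.0 CPM in Arid1a cKO and did not pass (0.33, edgeR adjusted p = 0.104). Whether the replication genes rose less than these markers was not tested.

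Members with and without the promoter element had close medians. The 18 members with an E2F element had a median log2 fold change of 0.413 and 6 calls, the 23 with a promoter and no such element 0.392 and 9 calls, and the 10 with no promoter in the table had 0.367 and 1 call. Of the 5 genes whose sequences are printed above, Dtl and Mcm5 (with the element) and Mcm10 and Rrm1 (without it) rose, and Mcm6, with 3 element matches, did not pass. No test was made of this difference.

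**Figure D5:**
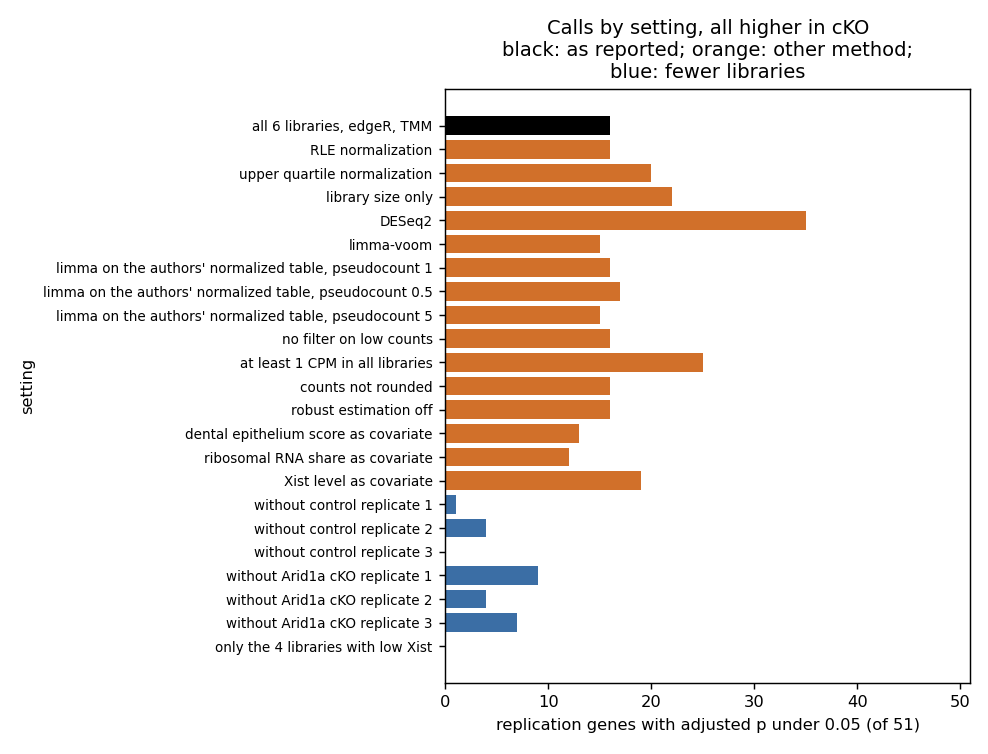
Number of the 51 replication genes with an adjusted p under 0.05 (x axis, from 0) under each way of processing the data (rows), all of them higher in Arid1a cKO. The number is 16 as reported, 35 with DESeq2, and between 0 and 9 when a library is left out.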

How the data were processed

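RNA-seq libraries were single-end, 75 cycles, from RNA with integrity numbers above 9.0, per the labels' protocols. The submitters' processing notes name STAR 2.6.1d, Partek and build mm10, while the annotation, kit and strand setting were not given in the sources used here. The authors deposited estimated counts for 25703 genes, which are not all whole, and a normalized signal for 21456 genes, equal to the count plus 1 over 1 factor per library within 0.000674%. Tested on the values, 97.5% of symbols matched GENCODE M21, whose positions and exon lengths are printed.

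Counts were rounded, filtered with filterByExpr (minimum count 10; 19613 genes kept), TMM-normalized and compared with edgeR 4.0.16 (R 4.3.3; glmQLFit with robust estimation, glmQLFTest, two-sided, genotype as the only term), after a check on simulated counts. The Benjamini-Hochberg adjustment ran over every gene tested. SE is the absolute log2 fold change over the square root of F. limma 3.58.1, DESeq2 1.42.0 and leaving out each library were alternatives. The covariates were the mean log2 CPM of dental epithelium markers, the summed ribosomal RNA genes and Xist. Replicates are numbered in accession order.

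The members and lists were chosen with earlier results of these data known. The rule names Arid1a, each member or other replication gene past the threshold, and 2 or more members of each role with the smallest p. Other members are named so that all 51 are accounted for. Protein sequences were not used here.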

Additional observations from a re-analysis of the deposited data

How the results depend on the processing

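Direction was stable for the members: all 51 kept a positive log2 fold change under each of the 22 other settings, and 0 were called lower under any. The 16 calls became 35 with DESeq2, 25 when only genes at 1 CPM or more in each library were kept, and 0 with only the 4 libraries with low Xist, a setting chosen after seeing the data. The planned fit with Xist as a covariate called 19. They became 0 to 9 when 1 library was left out. All 16 were among the 35 and among the 25. The median log2 fold change of the members (0.391) was 0.301 with limma on the authors' normalized table at a pseudocount of 5, and 0.366 to 0.464 with 1 library left out. A larger pseudocount shrinks the change of low genes by construction. The cause of the other differences, that with DESeq2 among them, was not tested.

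Of the 40 other replication genes 9 rose with DESeq2, 0 rose and 0 fell with the 4 libraries with low Xist, and 0 to 2 rose and 0 to 1 fell with 1 library left out. Their median (0.174) was then 0.142 to 0.22. The fall of Rrm2b was also not called (0 lower) with upper quartile normalization, with limma on the authors' table at pseudocounts of 0.5, 1 and 5, and with the dental epithelium score. The cause was not tested. Estimates near 0 changed sign. With 1 library left out the range was -0.0152 to 0.0972 for Orc5, -0.0164 to 0.1278 for Donson, -0.0076 to 0.1813 for Pold4 and -0.1208 to 0.0439 for Chtf8. With the ribosomal RNA share Donson was -0.0503 and Primpol -0.0327, and with the 4 libraries with low Xist Orc5 was -0.0063, Pold4 -0.018 and Chtf8 0.0011. In the 100 bases before the start alone, 14.6% of member genes held an E2F element, against 0.981% of all genes. This window is shorter, and it drops the bases after the start as well as those further upstream. In Cdt1, Clspn, Lig1, Mcm3, Pold1, Pold3 and Pole2 the element lay only after the start. In Cdc6, Mcm5, Pola1 and Uhrf1 it lay further upstream, and Mcm7 had matches in both parts. The effect of window length alone was not tested.

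No paired analysis was possible because the labels do not say which libraries form a pair, although the protocol speaks of 3 pairs of samples. The numbers in the titles are shared by 1 pair at most, so each p-value comes from a fit that ignores any pairing. The planned search of protein sequences was not run.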
